A study of Mus musculus with 6 samples.

Results

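The baseline expression profile of control neurospheres was described from the 3 arrays titled NSC miR-Control, out of 6 in the series. The arrays were chosen by their titles and all 32025 rows of the deposited log2 table were used. The cells were neural stem cells of CD-1 albino mouse embryos at E14.5, grown as floating neurospheres under proliferation conditions and nucleofected with miR-Control, a control RNA whose sequence the labels do not give. Total RNA was taken 72 h later and hybridised to exon arrays. The 3 arrays are biological triplicates per the submitters, and whether each came from a separate litter or from pooled embryos is not stated, so the spread between them may in part be technical. The remaining 3 arrays, of the same cells given a miR-128 mimic, were not compared with the controls here. No untreated culture is among the 6 samples, so transfection is shared by all of them.

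Neurospheres are colonies that form when embryonic brain progenitors divide in suspension. Their founders resemble radial glia, the elongated stem cells that line the ventricles, express intermediate filaments such as vimentin and nestin, and give rise first to neurons and later to astrocytes and oligodendrocytes. Epidermal and fibroblast growth factor signals keep such cultures dividing, and Notch signals hold back neuronal differentiation. A neurosphere is a mixture of cells, so in these bulk samples fewer cells of a type and less RNA per cell cannot be told apart.

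Of the 32025 rows, 25343 carried a gene name, for 20263 genes. Where a gene had several rows, the row with the highest 3-array mean was used. Gene means ran from 2.80 to 14.10 on the log2 scale, with a median of 7.73. Probes differ in how well they hybridise, so the log2 levels below, and words such as high and low, give positions in the distribution over the 20263 genes and not an order of abundance between genes. With no detection p in the table, 1022 olfactory receptor genes, which are used by sensory neurons of the nose, served as a reference for signal without expression. Their median was 4.68. Their 95th percentile, 6.98, is called the lower floor and their 99th percentile, 7.78, the upper floor. Of all named genes 61.8% lay above the lower floor and 49.3% above the upper floor.

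A low value on this scale does not show that a gene is silent. Of 49 named ribosomal protein genes, which every growing cell uses, 44 lay above the lower floor and 37 above the upper floor. Rplp1 (13.39 ± 0.11), Rpl18 (13.30 ± 0.09) and Rpl4 (13.29 ± 0.10) were near the top of the array, while Rps29 (4.69 ± 0.44), Rpl24 (4.92 ± 0.52) and Rpl29 (5.43 ± 1.08) lay among the olfactory receptors (SD, n = 3). The reverse also occurred: of 24 measured genes of liver, muscle, skin, pancreas and testis, 7 lay above the lower floor and 2 above the upper floor, Cela1 at 8.18 ± 0.24 and Krt10 at 7.85 ± 0.14. Among the olfactory receptors, Olfr287 reached 11.22 ± 0.36. Single genes between the floors are therefore given as values only.

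The 25 genes of highest mean lay between 13.10 and 14.10, and their SDs between 0.03 and 0.34. The elongation factor gene Eef1a1 (14.10 ± 0.09) and Arl1 (14.10 ± 0.05) had ranks 1 and 2. The 25 included the cytoskeletal genes Actb (13.97 ± 0.07), Tuba1a (13.33 ± 0.05) and Tubb5 (13.17 ± 0.12), and 4 ribosomal protein genes. Abundant noncoding RNAs were among them too, namely 28S ribosomal RNA (Rn28s1, 14.10 ± 0.16), the 7SK RNA that holds back transcription elongation (Rn7sk, 13.78 ± 0.34) and the nuclear RNA Malat1 (13.46 ± 0.20). Vim, the radial glial filament gene, was at 13.58, 13.61 and 13.51 in replicates 1 to 3. Ccnd2, the D-type cyclin of neural progenitors, was at 13.36, 13.43 and 13.52, and Cd81, a tetraspanin, at 13.29, 13.45 and 13.44. The energy genes Ckb, Atp5b, Aldoa, Ldha and Gpi1 and the lipid desaturase gene Scd2 completed much of the rest.

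**Figure D1:**
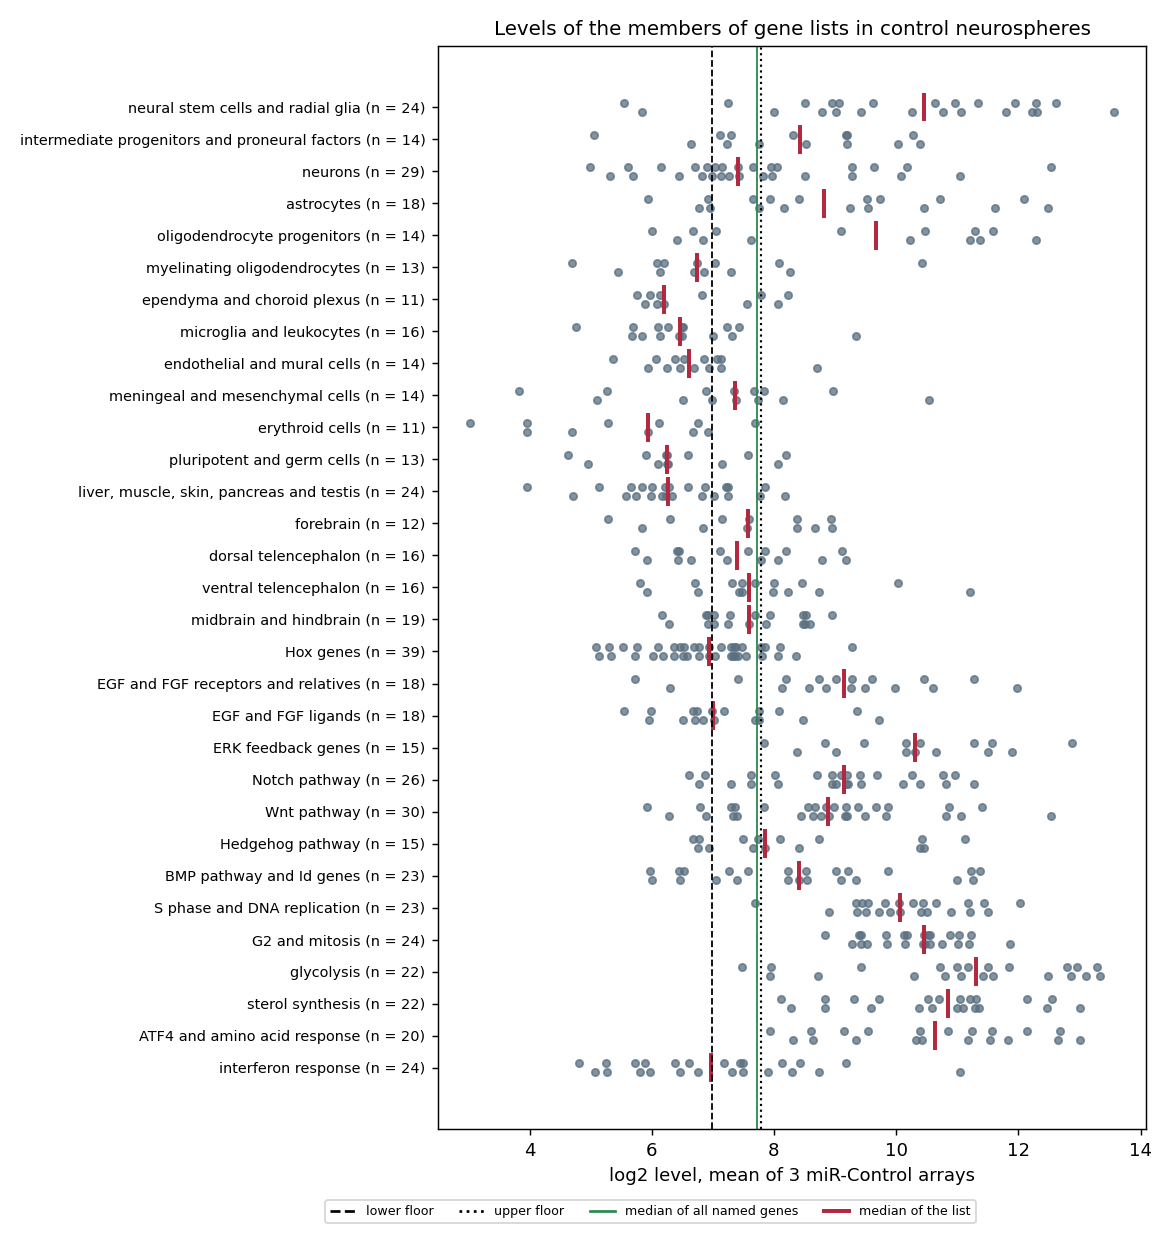
Log2 levels (mean of the 3 miR-Control arrays, horizontal axis) of the members of the gene lists (vertical axis, n measured genes). Each point is a gene, the red bar is the median of the list, the dashed and dotted lines are the lower floor of 6.98 and the upper floor of 7.78, and the green line is the median of all named genes, 7.73. The radial glial, S phase, mitosis, ERK feedback, glycolysis, sterol and amino acid response lists have medians above 10, while the lists of myelinating, ependymal, blood, vascular, meningeal, pluripotent and unrelated tissue cells have medians between 5.95 and 7.37.

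Genes of neural stem cells and radial glia were high on all 3 arrays. Of 24 members 22 lay above the lower floor and 21 above the upper floor, and 15 lay in the top 25% of named genes, where 25% of all genes lie by definition. The median member was at the 90.6th percentile. Fabp7, the brain lipid-binding protein of radial glia, was at 12.73, 12.68 and 12.43, and Slc1a3, the glial glutamate transporter GLAST, at 12.17, 12.22 and 12.27. Sox2, a transcription factor that maintains the stem cell state, was at 12.06, 11.69 and 12.08, with replicate 2 lowest. The filament gene Nes was at 11.44, 10.89 and 10.86, with replicate 1 highest and the other two close together. Tnc and Ptprz1, a matrix glycoprotein and a receptor phosphatase of radial glia, were at 12.31 ± 0.16 and 12.29 ± 0.08.

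A few textbook stem cell markers were low. Prom1, the membrane protein CD133 by which such cells are often sorted, was at 5.78, 5.89 and 5.87 in its highest of 7 distinct rows. Fut4, the enzyme that makes the LeX surface antigen, was at 5.82, 5.08 and 5.74. Both lay below the lower floor on every array. Pax6, a transcription factor of cortical radial glia, was at 8.79 ± 0.09 (66.0th percentile), and Hopx, a marker of outer radial glia, at 7.25 ± 0.14, between the floors.

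Intermediate progenitor and proneural genes lay nearer the middle of the array. Of 14 members 12 were above the lower floor, 8 above the upper floor and 3 in the top 25%. Among those 3 were Hes6 (10.40 ± 0.32) and Btg2 (10.28 ± 0.10). The cortical proneural and progenitor factors Neurog2 (7.23 ± 0.26) and Eomes (7.12 ± 0.17) lay between the floors, and Neurog1 (6.65 ± 0.17) and Neurod4 (5.05 ± 0.27) below the lower floor.

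Neuronal genes were split. Of 29 members 20 lay above the lower floor and 12 above the upper floor, and the list median of 7.41 was below the median of all genes. Map2, a dendritic microtubule protein, was at 12.54, 12.50 and 12.56, and Gria2, a glutamate receptor subunit, at 11.05 ± 0.09. Genes of young neurons lay on both sides of the floors. Gap43, a growth cone protein, was at 9.63 ± 0.15, Stmn3 at 9.28 ± 0.07, the RNA-binding protein gene Elavl4 at 8.51 ± 0.25 and the filament gene Ina at 8.05 ± 0.31, all above the upper floor. Other such markers lay between or below the floors, with Dcx at 6.89, 7.10 and 6.96, Tubb3 at 7.30, 7.11 and 6.70, and Stmn2 at 4.99 ± 0.21. Syt1, Gad2, Slc17a6 and Nefm, genes of transmitter release, transmitter identity and the axonal skeleton, ran from 5.31 to 6.15.

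Astrocyte genes were split in a similar way, with 14 of 18 above the lower floor, 12 above the upper floor and 8 in the top 25%. Aldoc (12.49 ± 0.11), Sparcl1 (12.09 ± 0.22), Mlc1 (11.61 ± 0.08) and Glul (10.72 ± 0.15) were high. Gfap, the filament gene that defines mature astrocytes, was at 6.98, 6.86 and 7.01, with the lower floor among the 3 values, and Aqp4, the water channel of astrocyte endfeet, was at 5.94 ± 0.20.

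Oligodendrocyte progenitor genes were split too. Of 14 members 10 lay above the lower floor, 8 above the upper floor and 7 in the top 25%. The transcription factor genes Olig1 (12.32, 12.30 and 12.24) and Olig2 (11.30, 11.09 and 11.25), Sox8 (11.29 ± 0.10) and the proteoglycan genes Bcan (11.59 ± 0.17) and Ncan (11.36 ± 0.11) were high. Pdgfra, the growth factor receptor that defines these progenitors, was at 6.35, 6.31 and 6.58 and Gpr17 at 6.68 ± 0.09, both below the lower floor on every array, and Sox10 was between the floors at 7.63 ± 0.12. Myelin genes were low, with 5 of 13 above the lower floor and 3 above the upper floor. Cnp, a myelin enzyme that progenitors also make, was at 10.42 ± 0.12, while Mbp (6.74 ± 0.08), Mag (6.20 ± 0.14) and Opalin (5.45 ± 0.18) were below the lower floor.

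**Figure D2:**
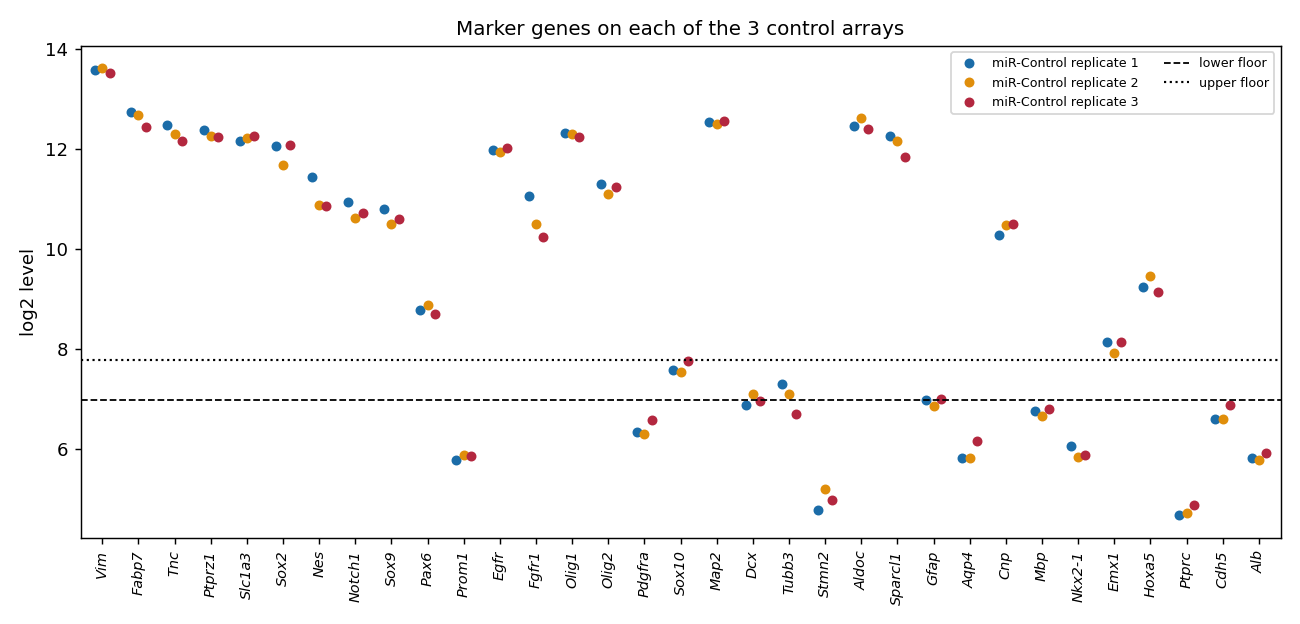
Log2 level (vertical axis) of marker genes on each of the 3 control arrays (colours), with the lower floor (dashed) and the upper floor (dotted). Radial glial genes, Egfr, Olig1 and Olig2 lie far above the floors on all 3 arrays, while Prom1, Pdgfra, Stmn2, Aqp4, Nkx2-1 and Ptprc lie below the lower floor.

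Most markers of other cell types did not pass the upper floor. Of 16 measured microglial and leukocyte genes 5 lay above the lower floor and 1 above the upper floor. Ptprc, the pan-leukocyte antigen CD45, was at 4.77 ± 0.11, and Itgam, Aif1 and P2ry12 were between 5.68 and 6.26. Among 14 endothelial and mural genes 4 lay above the lower floor and 1, the smooth muscle actin gene Acta2 (8.71 ± 0.43), above the upper floor, with Cdh5 at 6.69 ± 0.16 and Kdr at 5.94 ± 0.08. Of 11 erythroid genes 1, the embryonic globin gene Hba-x at a mean of 7.69, passed the lower floor. Of 14 meningeal and mesenchymal genes 9 lay above the lower floor and 4 above the upper floor, among them Fn1 (10.54 ± 0.28) and Foxc1 (8.96 ± 0.07). The collagen gene Col1a1 was at 8.15 ± 0.14, above the upper floor, and Col1a2 (7.74 ± 0.22), Col6a1 (7.68 ± 0.39) and Col3a1 (7.35 ± 0.14) lay between the floors. Other fibroblast genes were below the lower floor, with Lum at 3.83 ± 0.15, Dcn at 5.10 ± 0.04 and Postn at 5.27 ± 0.07. Of 11 ependymal and choroid plexus genes 4 (36.4%) passed the lower floor and 3 (27.3%) the upper floor. These 3 were Msx1 (8.23 ± 0.22), Folr1 (8.07 ± 0.14) and Foxj1 (7.79 ± 0.25). Of 13 pluripotency and germ cell genes 4 (30.8%) and 2 (15.4%) did, against 61.8% and 49.3% of all genes. Fgf4 (8.20 ± 0.45) and Dppa3 (8.07 ± 0.26) were above the upper floor, and Pou5f1 (5.90 ± 0.07) and Nanog (6.59 ± 0.27) below the lower floor.

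Regional transcription factors lay in the middle of the array. The forebrain factors Lhx2 and Nr2e1 were at 8.96 ± 0.34 and 8.93 ± 0.06. Of 12 forebrain genes 8 lay above the lower floor and 5 above the upper floor. Among 16 dorsal telencephalic genes these counts were 10 and 7, with Dmrta2 at 9.12 ± 0.22, Emx1 at 8.07 ± 0.13 and Emx2 at 7.79 ± 0.16. Among 16 ventral genes they were 12 and 7. Apart from Olig2, described above, Dlx1 (7.99 ± 0.14) and Dlx2 (7.99 ± 0.15), factors of the ganglionic eminences, were just above the upper floor. Nkx2-1, which defines the medial ganglionic eminence, was at 6.05, 5.84 and 5.89, below the lower floor on every array.

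Midbrain and hindbrain genes lay in the middle of the array too. Of 19 such genes 14 lay above the lower floor (73.7%, against 61.8% of all genes) and none in the top 25%. Above the upper floor were 8 (42.1%, against 49.3% of all genes and 41.7% of the forebrain list). Among these were Irx2 (8.59 ± 0.14), Gbx2 (8.53 ± 0.17) and Lmx1b (8.51 ± 0.17). All 39 Hox genes, which pattern the hindbrain and spinal cord, had a named row. Of these, 18 lay above the lower floor (46.2%, against 61.8% of all genes) and 7 above the upper floor, and none was in the top 25%. Hoxa5 was at 9.25, 9.47 and 9.14, Hoxa7 at 8.37 ± 0.21 and Hoxa4 at 8.07 ± 0.15, while others of the HoxC and HoxD clusters, such as Hoxc6 (5.30 ± 0.20) and Hoxd8 (5.34 ± 0.44), were below the lower floor.

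Receptors and targets of growth factor signalling were high. Egfr, the receptor for epidermal growth factor, was at 11.98, 11.95 and 12.01. Fgfr1 was at 11.05, 10.50 and 10.23, Fgfr3 at 10.46 ± 0.06 and Fgfr2 at 8.13 ± 0.13, while Erbb3, a receptor of the neuregulins, was below the lower floor at 6.31 ± 0.23. Of 18 receptors, co-receptors and related genes such as the adaptors Grb2 and Frs2, 16 lay above the lower floor and 15 above the upper floor. Of the ligands, 9 of 18 lay above the lower floor and 4 above the upper floor, namely Fgf1 (9.73 ± 0.03), Hbegf (9.37 ± 0.17), Fgf8 (8.48 ± 0.20) and Nrg1 (8.08 ± 0.08). Egf (6.52 ± 0.06) and Fgf2 (5.99 ± 0.39) lay below the lower floor.

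Genes listed as targets or feedback inhibitors of ERK signalling lay above the upper floor in all 15 cases, with 11 of 15 in the top 25%. Dusp6, an ERK phosphatase, was at 12.84, 12.96 and 12.85. Spry2 and Spry4, inhibitors of receptor signalling, were at 11.90 ± 0.12 and 11.50 ± 0.17, Spred1 was at 11.57 ± 0.15, and the transcription factor genes Etv5 and Etv1 were at 11.27 ± 0.23 and 10.65 ± 0.09. The median SD of this list was 0.10, against 0.16 over all genes.

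In the Notch pathway 23 of 26 members lay above the lower floor and 20 above the upper floor. The receptors Notch1 (10.94, 10.62 and 10.73), Notch2 (9.69 ± 0.11) and Notch3 (9.42 ± 0.13), the ligands Jag1 (10.11 ± 0.12) and Dll1 (9.18 ± 0.10), and the targets Hes1 (10.27 ± 0.13) and Hes5 (9.01 ± 0.30) were among them, while Hey2 (6.62 ± 0.24) and Dll4 (6.87 ± 0.09) were below the lower floor. Of 30 Wnt genes 26 and 22 passed the floors. Ctnnb1, which encodes beta-catenin, was at 12.54 ± 0.20 and the ligand gene Wnt5a at 10.81 ± 0.04, with Wnt1 (6.29 ± 0.07) and Wnt8b (5.93 ± 0.23) below the lower floor. In the Hedgehog pathway 11 of 15 and 8 of 15 passed the floors, or 73.3% and 53.3%, against 61.8% and 49.3% of all genes. Of the 15, 4 (26.7%) lay in the top 25%, and the median member was at the 51.7th percentile. The receptor Ptch1 (10.43 ± 0.22), the transducer Smo (10.46 ± 0.18) and the co-receptor Gas1 (11.12 ± 0.24) were high, whereas the ligand Shh (6.78 ± 0.44) and the target Gli1 (6.76 ± 0.17) were below the lower floor. Among BMP genes 18 of 23 (78.3%) and 14 of 23 (60.9%) passed, and 6 of 23 (26.1%) lay in the top 25%. Bmpr1a was at 11.26 ± 0.10, Id2 at 9.35 ± 0.32 and Id3 at 9.02 ± 0.19. The ligands Bmp2 (6.46 ± 0.14) and Bmp4 (5.98 ± 0.26) were below the lower floor.

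Genes of S phase and mitosis were mostly in the top 25%, and those of G1 less uniformly so. All 24 genes of G2 and mitosis lay above the upper floor and 22 in the top 25%, and of 23 S phase genes 22 and 21 did. The exception to the upper floor was Gmnn, an inhibitor of replication licensing, at 7.69 ± 0.23. Mki67, a nuclear marker of cycling cells, was at 11.15, 11.29 and 11.23. Top2a, the topoisomerase of dividing cells, was at 12.01, 11.93 and 11.63, and Rrm1, a ribonucleotide reductase subunit, at 12.03 ± 0.14. Of 22 genes in the G1 list, which holds cyclins, kinases, E2F factors and MYC family members, all lay above the lower floor. Above the upper floor were 19, and 8 were in the top 25%. Ccnd2 and the kinase gene Cdk4 (13.04 ± 0.14) were joined by Ccnd1 (12.50 ± 0.08) and Myc (11.46, 11.51 and 11.55), while Mycl (7.77 ± 0.24) and E2f2 (7.20 ± 0.10) were between the floors, as was Mycn, the relative used in the embryonic brain, at 7.06 ± 0.11.

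Some inhibitors of the cell cycle were high in the same cultures. All 7 measured inhibitor genes lay above the upper floor and 4 in the top 25%, with the lowest at 7.88. Cdkn1a, which encodes p21, was at 12.48, 12.57 and 12.56. Cdkn1b was at 10.72 ± 0.13. Cdkn2a, the locus of the Ink4a and Arf proteins, was at 9.52, 9.90 and 10.61, with replicate 3 highest and an SD of 0.56. Of 18 genes of the p53 response all lay above the lower floor, 16 above the upper floor and 14 in the top 25%, among them Ccng1 (12.78 ± 0.05), Trp53inp1 (12.09 ± 0.24) and Mdm2 (10.47 ± 0.16). Immediate early genes all lay above the lower floor, 16 of 18 above the upper floor and 6 in the top 25%, led by Egr1 (11.88 ± 0.16) and Jun (10.89 ± 0.14). Genes of the interferon response had a median of 6.97 with 12 of 24 above the lower floor and 7 above the upper floor, and Mx1, Ifit1 and Mx2 lay between 4.81 and 5.25.

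Metabolic genes were high on the array. Glycolysis genes had a median of 11.30 with 18 of 22 in the top 25%, among them Aldoa (13.33 ± 0.05), Ldha (13.29 ± 0.06) and Eno1 (12.97 ± 0.06). Pgk1, an enzyme of the same pathway, was the lowest at 7.48 ± 0.78, with 6.94, 7.13 and 8.37 in the 3 replicates. Sterol synthesis genes all lay above the upper floor with 17 of 22 in the top 25%, including Hmgcs1 (13.00 ± 0.09) and Msmo1 (12.48 ± 0.12). Genes of the amino acid response all lay above the upper floor too, with 15 of 20 in the top 25%, such as Psat1 of serine synthesis (13.01 ± 0.10), Asns of asparagine synthesis (12.68 ± 0.11) and the transporter Slc7a5 (12.15 ± 0.15).

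Imprinted genes, expressed from 1 parental copy, were spread over the array. Of 26 measured, 18 lay above the lower floor, 16 above the upper floor and 11 in the top 25%. Mest was at 13.04, 12.98 and 12.85, Gnas at 12.84 ± 0.33 and Nnat at 12.08 ± 0.06. Igf2, the fetal growth factor, was at 6.94, 6.92 and 7.21 and the noncoding RNA Meg3 at 6.91 ± 0.18. Of the sex chromosome genes, Xist, the RNA that coats the inactive X chromosome in female cells, was at 5.69, 5.61 and 5.79, below the lower floor on every array in its higher row of 2. The Y-linked genes Ddx3y (10.83, 11.13 and 10.90), Eif2s3y (10.18 ± 0.19), Kdm5d (9.25 ± 0.18) and Uty (9.17 ± 0.16) all lay above the upper floor.

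The host genes of miR-128, a microRNA of mature neurons, both had rows above the upper floor. R3hdm1, which holds the first copy in an intron, was at 10.71, 10.45 and 10.33. Arpp21, which holds the second, was at 8.20, 8.43 and 8.40 in its highest row, and its 9 distinct rows had means from 7.12 to 8.34. The table also has rows for the precursor hairpins: Mir128-1 was at 7.40, 7.83 and 8.07 and Mir128-2 at 7.84, 7.50 and 9.25, the last value in replicate 3. These rows report signal at the hairpin and not the level of the mature microRNA.

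The 3 arrays differed little for most genes. The median SD over 3 arrays was 0.16 and 95% of genes had an SD of at most 0.39. The range over the 3 arrays was under 1, a factor of 2, for 98.4% of genes. Across the 20263 genes, which are not independent replicates, Pearson's r was 0.994 between replicates 1 and 2, 0.989 between 1 and 3 and 0.988 between 2 and 3. The SD of gene-wise differences was 0.241 between replicates 1 and 2 but 0.330 and 0.344 for the pairs with replicate 3. The median absolute difference was 0.134 between replicates 1 and 2, 0.206 between 1 and 3 and 0.224 between 2 and 3. Without replicate 3 the median SD was 0.0945, which is over 2 arrays and so not directly comparable with 0.16 over 3.

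Replicate 3 had a narrower distribution. Its interquartile range over all rows was 2.87, against 3.17 and 3.22 in replicates 1 and 2. When genes were put in 10 bins of equal size by mean level, replicate 3 lay 0.147 to 0.196 above the mean of the other two in bins 1 to 5, the lower levels, and 0.124 to 0.187 below it in bins 7 to 10 (median differences of -0.124 to -0.187). After quantile normalization of the 3 columns these medians lay between -0.028 and 0.018. Spread did not depend on level in a marked way, with median SDs from 0.147 to 0.177 over the 10 bins.

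**Figure D3:**
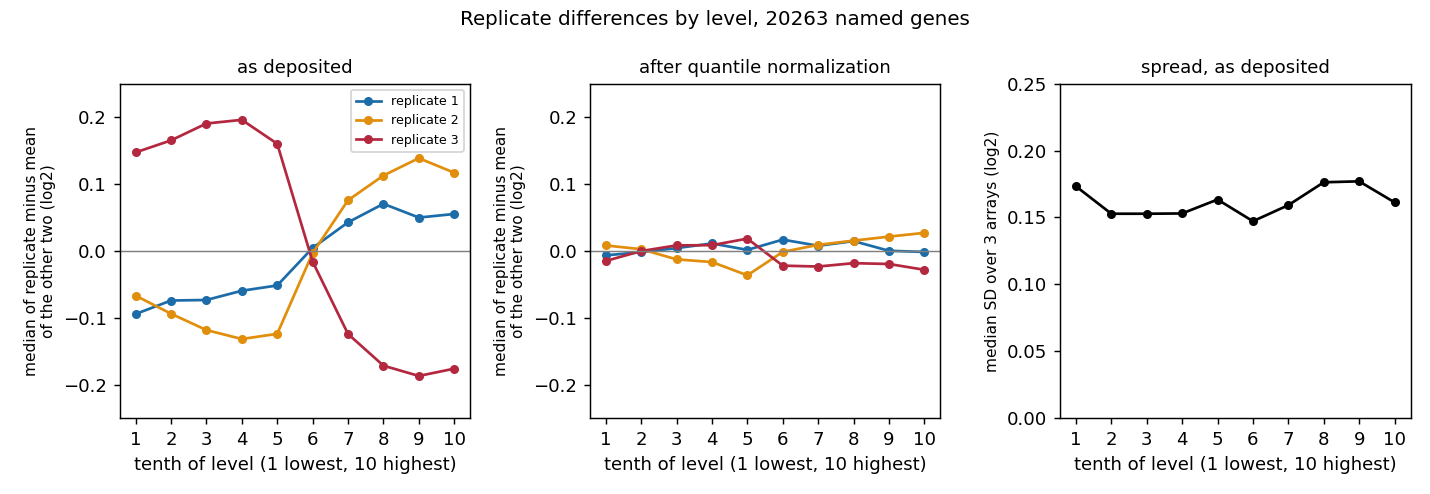
Left and middle, the median over genes of each replicate minus the mean of the other two (log2, vertical axis) in 10 bins of mean level (horizontal axis), as deposited and after quantile normalization. Right, the median SD over 3 arrays in the same bins. Replicate 3 is above the others at low levels and below them at high levels as deposited, and stays between -0.028 and 0.018 after quantile normalization.

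The S phase and mitosis lists were lower in replicate 3 also after the difference in width was removed. As deposited, replicate 3 was below the mean of the other two in 22 of 23 S phase genes and in 22 of 24 genes of G2 and mitosis, where 47.3% of all genes were. The median differences were -0.38 and -0.34. After quantile normalization it was below in 21 of 23 and 19 of 24, where 51.6% of all genes were, with medians of -0.24 and -0.18. Slbp, the histone messenger binding protein, was at 9.78, 9.75 and 9.11, and Tipin, a replication fork protein, at 10.04, 10.07 and 9.36. Mitochondrial ribosomal protein genes were below in 55 of 78 after quantile normalization, with a median of -0.11. In the other direction, lists of several kinds were higher in replicate 3 after quantile normalization. The median was 0.15 for the p53 list (5 of 18 below) and 0.20 for midbrain and hindbrain (4 of 19). It was 0.21 for pluripotent and germ cells (3 of 13), a list with 4 of 13 genes above the lower floor. For cyclin-dependent kinase inhibitors it was 0.19 (2 of 7) and for forebrain 0.16 (4 of 12). A comparison of 1 array with 2 has no replicate check, so no test was made, and the part of RNA quality or culture state in these differences was not tested.

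**Figure D4:**
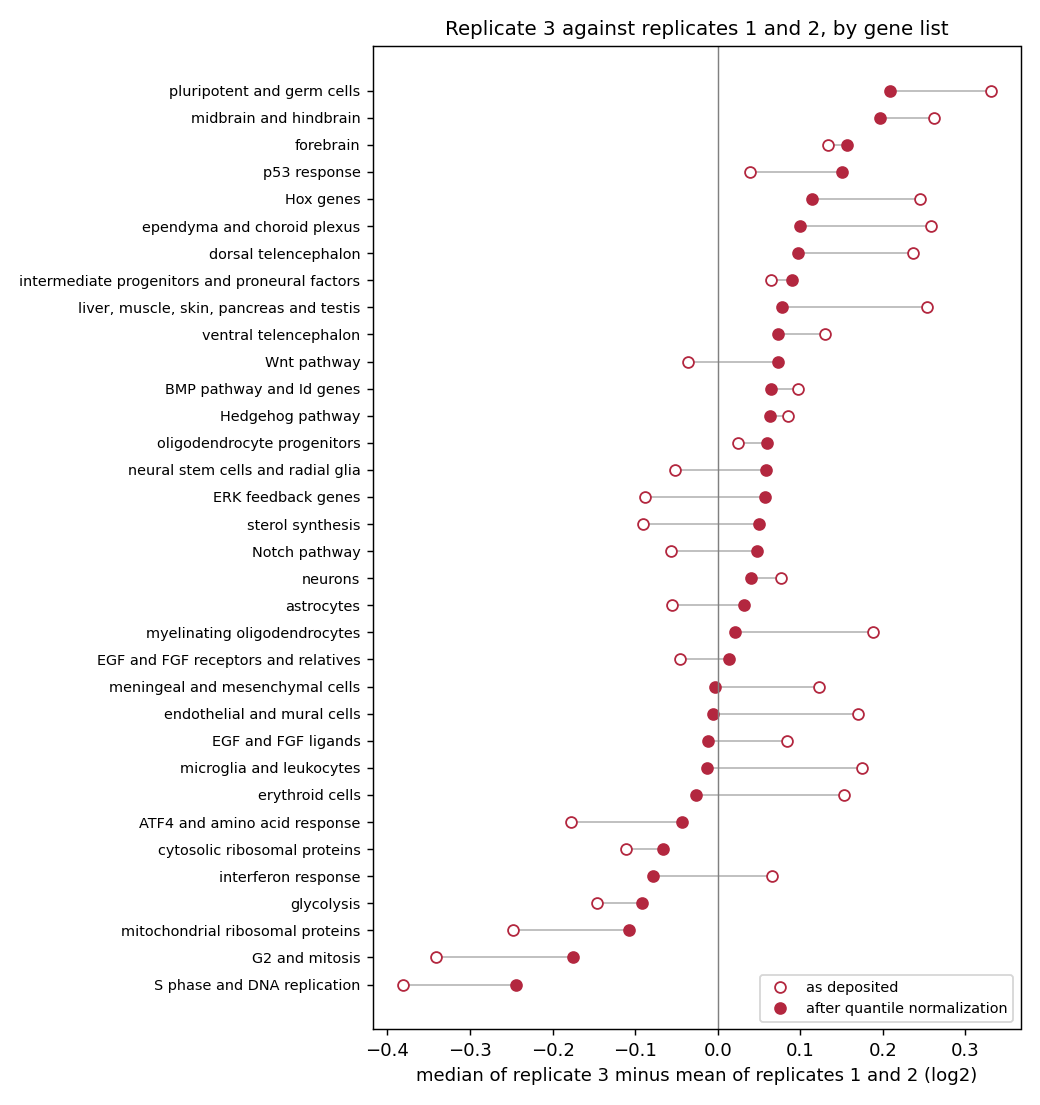
Median over the members of each list of replicate 3 minus the mean of replicates 1 and 2 (log2, horizontal axis), as deposited (open) and after quantile normalization (filled). S phase and mitosis are the lowest under both, at -0.38 and -0.34 as deposited and -0.24 and -0.18 after quantile normalization.

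The 20 genes of largest spread among those above the lower floor had SDs from 0.73 to 2.78. In 17 of them replicate 3 was the array farthest from the middle of the 3 values. Over all 20, replicate 3 had the highest value in 14 and the lowest in 6. The filter uses the 3-array mean, so a high replicate 3 helps a gene pass and a low one can remove it. These counts therefore depend in part on the filter. Usp17ld, a deubiquitinase gene, was at 6.84, 7.20 and 11.82, and C1rb, a complement protease gene, at 6.42, 6.67 and 9.42, so that replicates 1 and 2 lay near or below the lower floor and replicate 3 above the upper floor. Dppa4, a nuclear protein gene of pluripotent cells, differed on all 3 arrays, at 10.63, 9.34 and 8.07. Anp32b, a histone chaperone gene, was at 12.21, 11.17 and 10.52, and Ndufa12, a subunit of respiratory complex I, at 10.22, 10.15 and 11.66. M6pr, a receptor that sorts lysosomal enzymes, was lower in replicate 3, at 8.78, 8.65 and 7.23. At the other end, Rab10, a membrane traffic GTPase gene, had values of 11.65, 11.64 and 11.64.

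**Figure D5:**
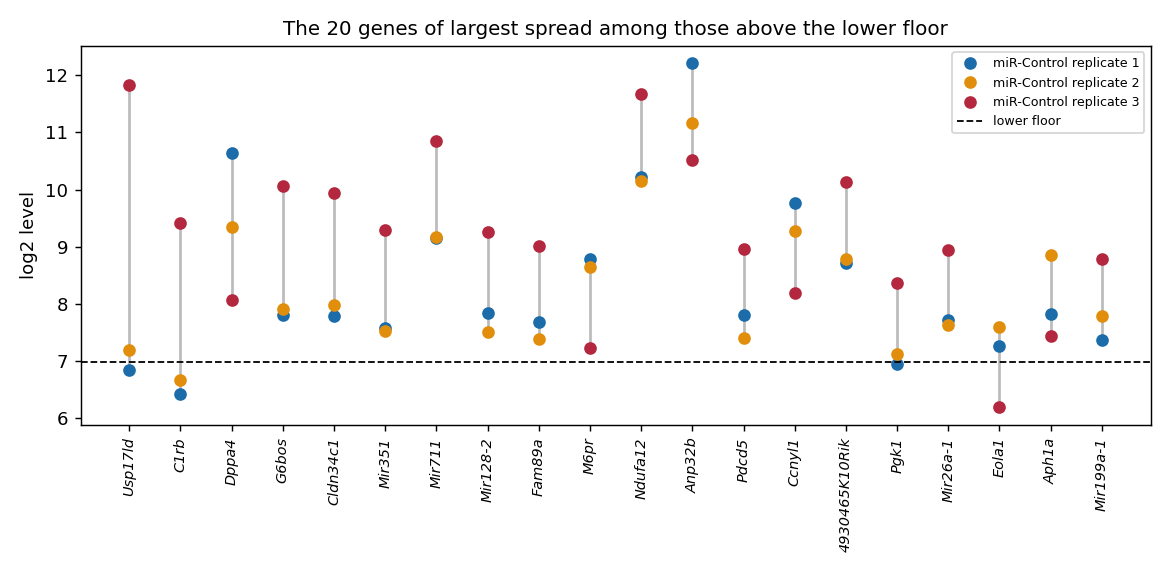
Log2 level (vertical axis) on each of the 3 arrays for the 20 genes of largest SD among those above the lower floor (dashed line). Replicate 3 is the highest of the 3 in 14 genes and the lowest in 6, counts that depend in part on the filter by mean.

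Rows of microRNA precursors varied more than other rows. The 223 such genes had a median level of 5.84, 60 of them lay above the lower floor, and their median SD was 0.34 against 0.16 over all genes. Of the 20 genes of largest spread 5 were of this kind, all highest in replicate 3. The filter by mean bears on this. Mir15b (5.11, 6.44 and 2.77, SD 1.86) and Mir19b-2 (5.45, 5.88 and 2.73, SD 1.71), both lowest in replicate 3, had means below the lower floor. So did Mir199a-2 (4.28, 4.74 and 7.01, SD 1.46), which was highest in replicate 3. Of the 5 above the lower floor, Mir351 was at 7.58, 7.52 and 9.29 and Mir711 at 9.15, 9.16 and 10.86. Mir26a-1 was at 7.71, 7.63 and 8.94 and Mir199a-1 at 7.36, 7.79 and 8.78, beside Mir128-2. As deposited, replicate 3 was below the mean of the other two in 68 of 223, and after quantile normalization in 87 of 223, with medians of 0.27 and 0.14. For each of the 5 hairpins among the 20 genes, 1 mature arm, from RefSeq on GRCm38.p6, is shown. An arm need not be unique to its hairpin, as miR-128-3p is the same for Mir128-1 and Mir128-2. Bases 2 to 8, the seed that pairs with targets, are in capitals, and the 5 seeds differ.
miR-128-3p: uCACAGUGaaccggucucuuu
miR-351-5p: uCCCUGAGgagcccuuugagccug
miR-711: gGGACCCGgggagagauguaag
miR-26a-5p: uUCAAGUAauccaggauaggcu
miR-199a-5p: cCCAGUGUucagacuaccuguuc

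Promoter composition differed with the level of the gene. RefSeq promoters of 300 bases on GRCm38.p6, from 250 before to 50 after the start, were matched by symbol. For the 2666 genes with more than 1 promoter the first listed was used. Protein-coding genes were put in 4 groups of equal size by level. In the lowest group the median ratio of observed to expected CpG was 0.200, in the next to highest 0.778 and in the highest 0.829. The letters TATAAA between 40 and 16 bases before the start were found in 5.82%, 1.04% and 0.769% of these promoters. With the last listed promoter of each gene these shares were 5.69%, 0.968% and 0.974%, so the upper 2 groups were not told apart. Of all 27025 promoters in the table, not limited to these genes, 2.22% had the letters. In the second group 75.3% of genes had a promoter, under the minimum of 80%, and no share is given. The lowest group, with 3934 promoters, ended at a level of 6.29, above the medians of olfactory (4.68) and vomeronasal (3.90) receptor genes. Promoters of these receptor families, 867 and 197 in number, each had a median CpG ratio of 0.107. TATAAA was found in 13 and 0 of them. How the groups would differ without these families was not tested. Vim is 1 of the 30 genes of the highest group with these letters in the first listed promoter, shown here in capitals (chr2:13574267-13574296, plus strand, GRCm38.p6).
Vim: tcctaacagtgtTATAAAagcagcgccctt

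Most mitotic genes with a promoter in the table shared a short motif there. Of the 24 genes 20 had a promoter in the table. The letters CCAAT, searched on both strands in the 250 bases before the start, were found in 17 of these 20 (85.0%) and in 34.5% of all promoters in the table. Matches at 2 or more places were found in 12 of 20, against 10.5% of all. The letters TTTGAA, the core of an element named CHR that is known from cell cycle promoters, searched the same way and counted without regard to overlap with CCAAT, were found in 7 of 20 (35.0%), against 16.3% of all. Neither motif was particular to mitotic genes. CCAAT was also found in 8 of 13 dorsal telencephalic promoters. It was in 15 of 16 sterol synthesis promoters, a list in which only 16 of 22 genes had a promoter. TTTGAA was found in 35.5% of olfactory receptor promoters. CCAAT is the site of the factor NF-Y, and a match is a description and not evidence of binding. The 30 bases around the match nearest the start are shown for 5 of the mitotic genes, with CCAAT or its reverse complement in capitals, in the direction of the gene. Their coordinates on GRCm38.p6 are chr11:99024230-99024259 (minus strand) for Top2a, chr10:69352943-69352972 (minus) for Cdk1, chr9:70421558-70421587 (minus) for Ccnb2, chr13:100786536-100786565 (minus) for Ccnb1 and chr2:164769860-164769889 (plus) for Ube2c.
Top2a: agcgagtcggtgATTGGttcctctgatttg
Cdk1: acgtgcaatcggATTGGcggatcccgggag
Ccnb2: gcgtgcgtctacCCAATagtgcgtcagcgg
Ccnb1: gccacgaactggCCAATgaggagcgagcgg
Ube2c: agcgagcctttgATTGGctagcgcagcggg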

How the data were processed

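The deposited log2 values of 3 miR-Control arrays were made by the authors, who used affy and its RMA method as the submitters' processing notes state without versions. RMA corrects background, equalises probe distributions and summarises probe groups, and it compresses differences. The sources used here give neither a genome build for the array nor the origin of its RefSeq probe groups. Rows were named, without version numbers, through the RefSeq table of GRCm38.p6, and 6682 rows stayed unnamed. Identical values occurred in 3058 rows that repeat an earlier one. Values were analysed in Python 3.11.15 with pandas 2.3.3. Counts, medians and SDs were taken over the 3 arrays, with no test, since there is 1 group. The scripts were tested on simulated data. Of 860 genes in 43 lists 844 had a row. Members, lists and floors were chosen with earlier results of these data known. Named genes are the 25 of highest mean, the 20 of largest and 10 of smallest SD above the lower floor, and list members. The number of arrays limits the precision. Some list members are not reported here.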

Additional observations from a re-analysis of the deposited data

How the results depend on the processing

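No paired analysis was possible because the values come from 1 group and from no test. Counts of genes above the lower floor depended on the floor for lists near it. With the 99th percentile of olfactory receptors they went from 20 to 12 for neurons, 5 to 3 for myelin, 5 to 1 for microglia, 4 to 1 for endothelium, 9 to 4 for meninges, 1 to 0 for erythroid cells, 4 to 2 for pluripotent cells, 7 to 2 for unrelated tissues, 8 to 5 for forebrain, 12 to 7 for ventral telencephalon, 14 to 8 for midbrain and hindbrain, 18 to 7 for Hox genes, 9 to 4 for EGF and FGF ligands, 12 to 7 for interferon genes and 6 to 2 for vomeronasal receptors. A lower floor, the 95th percentile of vomeronasal receptors (6.18), gave 9 for myelin, 10 for microglia, 11 for endothelium, 4 for erythroid cells, 9 for pluripotent cells, 14 for unrelated tissues, 30 for Hox genes, 15 for ligands and 11 for vomeronasal receptors. A floor chosen after seeing the data, the 95th percentile of unrelated tissue genes (7.84), gave 11 for neurons, 3 for myelin, 2 for ependyma, 1 for microglia, 1 for endothelium, 3 for meninges, 0 for erythroid cells, 2 for pluripotent cells, 2 for unrelated tissues, 5 for forebrain, 6 for dorsal and 7 for ventral telencephalon, 8 for midbrain and hindbrain, 5 for Hox genes, 4 for ligands, 7 for interferon genes and 2 for vomeronasal receptors. Against each array's own floor the endothelial count was 2. The top 10% of named genes held 2027 genes, against 5066 in the top 25%. Leaving out 1 replicate gave a median SD, over 2 arrays, between 0.0945 and 0.158, the lowest without replicate 3. The median of a gene's distinct rows moved 51 of 885 named genes by 1 SD or more. Signal over background limits all lists near the floors.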

Other observations

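Adhesion genes stood high in the control neurospheres. Of 20 integrin and adhesion genes 17 lay above the lower floor, 15 above the upper floor and 13 in the top 25%, with a median of 10.55. Itgb1, the integrin beta subunit that binds laminin and fibronectin, had a mean of 12.57, and Cdh2, the N-cadherin gene, 11.34, while Cdh1, the E-cadherin gene, had a mean of 6.75 and lay below the lower floor. Among 22 matrix genes the counts were 17, 13 and 9, with a mean of 11.57 for the laminin gene Lamc1 and 4.96 for the link protein gene Hapln1. Mitochondrial ribosomal protein genes lay above the lower floor in 75 of 78 cases and above the upper floor in 73. Genes often used as references for expression passed the lower floor in all 13 measured cases, and their median SD was 0.21, against 0.16 over all genes. Long noncoding RNA genes had a median level of 6.48, with 190 of 551 above the lower floor and 100 above the upper floor.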
